A study of Mus musculus with 9 samples.

Results

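The expression of 6 genes of stress and growth control was followed in mouse hepatocytes: the secreted hormones Fgf21, Gdf15 and Stc2, and the growth-restraining genes Ddit4, Sesn2 and Eif4ebp1. They were chosen by gene symbol, as genes known to be switched on by the transcription factor ATF4, and the deposited table held each of the 6 once among its 54532 genes. Expression was measured in 9 libraries of primary hepatocytes from C57BL/6 mice, 3 in each of 3 groups. Hepatocytes of COX-2fl/fl/Alb-Cre- littermates, called WT, spent 2 hours in 1% serum before 24 hours with DMSO (WT DMSO) or with 6 μmol/L tunicamycin (WT Tu). Hepatocytes of COX-2fl/fl/Alb-Cre+ mice, called COX-2 CKO, were given tunicamycin at that dose and for that time (CKO Tu), after the same 2 hours in 1% serum. All 3 groups therefore carry the floxed COX-2 allele, and Cre is driven by the albumin promoter, which is active in hepatocytes. The labels describe male mice, and give no age. No knockout library with vehicle is among the 9, so the response of knockout cells to tunicamycin itself was not measured. Nothing in the labels ties the replicates to separate animals, so the p-values rest on the spread among these libraries, which may be technical.

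Tunicamycin blocks the first step of N-glycosylation and so causes misfolding in the endoplasmic reticulum (ER). The ER kinase PERK, like the kinases that sense amino acid lack, phosphorylates the initiation factor eIF2α, general translation falls, and ATF4 is translated; this is the integrated stress response. ATF4 binds sites that join the recognition letters of C/EBP proteins and ATF proteins (the CARE element), and its targets include hormones that report stress in the liver to the rest of the body and proteins that restrain mTORC1, the kinase complex that drives protein synthesis and growth. FGF21 acts through FGF receptors with the co-receptor beta-Klotho, GDF15 lowers appetite through the receptor GFRAL in the hindbrain, and stanniocalcin 2, from Stc2, inhibits the protease PAPP-A that frees insulin-like growth factors. REDD1, from Ddit4, restrains mTORC1 through the TSC complex, sestrin 2, from Sesn2, does so as a leucine-sensitive inhibitor of GATOR2, and 4E-BP1, from Eif4ebp1, binds the cap-binding protein eIF4E when mTORC1 is off.

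The stretch just before the start of Fgf21, Gdf15, Stc2 and Ddit4 is shown, since these 4 genes are the ones whose levels differed between groups. RefSeq (GRCm38.p6, the assembly of mm10) gave a start for 5 of the 6 genes, and the 250 bases before it were searched on both strands. Capitals mark matches to the CARE letters TGATGNAA and to the core ACGTG, which hypoxia-inducible factor (HIF) can bind and which the E-box CACGTG also contains. Each stretch is given 5′ to 3′ on the gene's own strand, the minus strand for all 4. Bases that the gene's own annotation places inside the transcript were left out, 13 for Stc2 and 64 for Ddit4.

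Fgf21, chr7:45615491-45615740: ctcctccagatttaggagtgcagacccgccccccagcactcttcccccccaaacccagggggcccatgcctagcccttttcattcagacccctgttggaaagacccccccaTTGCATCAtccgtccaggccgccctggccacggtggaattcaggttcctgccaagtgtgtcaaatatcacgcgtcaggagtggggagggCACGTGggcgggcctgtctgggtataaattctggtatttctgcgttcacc
Gdf15, chr8:70632457-70632706: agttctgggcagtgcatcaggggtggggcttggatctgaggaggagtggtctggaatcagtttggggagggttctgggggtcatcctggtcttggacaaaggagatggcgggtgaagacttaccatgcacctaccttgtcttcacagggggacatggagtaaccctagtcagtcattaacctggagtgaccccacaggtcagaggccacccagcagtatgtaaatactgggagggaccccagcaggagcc
Stc2, chr11:31370075-31370311: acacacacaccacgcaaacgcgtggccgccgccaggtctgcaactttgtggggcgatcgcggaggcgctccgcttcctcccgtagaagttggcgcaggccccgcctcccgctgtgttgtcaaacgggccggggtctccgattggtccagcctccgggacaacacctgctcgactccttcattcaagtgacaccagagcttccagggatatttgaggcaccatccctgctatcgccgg
Ddit4, chr10:59951835-59952020: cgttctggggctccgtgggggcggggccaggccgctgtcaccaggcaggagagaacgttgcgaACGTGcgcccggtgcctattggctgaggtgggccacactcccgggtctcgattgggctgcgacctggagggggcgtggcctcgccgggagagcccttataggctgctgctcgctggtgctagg

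Of the first windows of these 5 genes, only that of Fgf21 held the CARE letters, on the opposite strand from -139 to -132. Positions are counted back from the RefSeq start. The CARE letters were present in 3.45% of the 32851 RefSeq windows of that length. The core ACGTG was in the windows of Fgf21 (within CACGTG) and Ddit4 (starting at -187). The -187 counts the 64 bases left out of the printed Ddit4 stretch. The core was also in a further window that starts from a site inside the Gdf15 gene, and in 16.6% of all windows. The letters TGACGTGG (UPRE), whose core also matches ACGTG, TGACGTCA (CRE) and the ERSE, the element of ER chaperone genes, were in none of the searched windows of the 5 genes, and in 0.563%, 1.55% and 0.113% of all windows. Matched letters are a description of the sequence and not evidence of binding, and their absence speaks only of these windows.

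The 9 libraries held between 14897358 and 16001484 fragments, recovered from the deposited FPKM (fragments divided by gene length and by sequencing depth, as the authors scaled it). Hepatocyte markers were high in all groups: Alb, Apoa1, Ttr, Cps1 and Hnf4a together came to between 13281 and 17288 FPKM per library. Ptgs2, the gene deleted in COX-2 CKO cells, had 0 to 13 fragments in each WT DMSO library, 5 to 8 in each WT Tu library and 1 to 2 in each CKO Tu library, too few to check the labels firmly. Xist, expressed from an inactive X chromosome, had 20659 to 33657 fragments per WT library and at most 3 per CKO Tu library, while a set of 4 Y-linked genes together had 0 per WT library and 3486 to 3633 per CKO Tu library. The WT libraries thus go against the label of male mice, and genotype and sex-linked transcription cannot be told apart in any comparison with CKO Tu. On the second principal component WT Tu replicate 1 lay at -36.6, replicates 2 and 3 of WT Tu both lay at -19.6, and replicate 1 also had the highest mitochondrial share, 6.87%. Markers of other cells were low or moved: 8 endothelial markers summed to 10.4 to 11.3 FPKM per WT DMSO library, 4.63 to 5.39 per WT Tu library and 3.36 to 3.92 per CKO Tu library, and 5 cholangiocyte markers to 22.7 to 25.9, 22.8 to 24.3 and 34.3 to 38.3 FPKM. The 8 Kupffer cell markers summed to 75.2 to 92.8, 96.9 to 114.8 and 92.7 to 106.9 FPKM. A mean of 1 FPKM was reached by 2 of the 8 in WT DMSO. In WT Tu and in CKO Tu it was reached by 1, so 1 gene makes up most of the sum there. Of the 8 markers, Vsig4 was at 0 in all 3 groups, Marco in WT Tu and CKO Tu, and Adgre1 and Clec4f in CKO Tu. The 7 stellate cell markers summed to 5.38 to 6.55, 4.96 to 5.87 and 6.41 to 7.25 FPKM, and 7 lymphocyte and neutrophil markers to at most 1.05 FPKM in any library. The part of these cells in the results below was not tested. In a bulk library, fewer cells of a type and less RNA per cell cannot be told apart.

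Per kilobase of gene, the 6 genes kept one order of mean level in all 3 groups: Eif4ebp1, Gdf15, Sesn2, Ddit4, Fgf21 and Stc2. Their WT DMSO means ran from 208 FPKM for Eif4ebp1 to 0.0397 FPKM for Stc2. Neighbours in that order were not always separate: the libraries of Eif4ebp1 and Gdf15 overlapped in WT Tu, and those of Sesn2 and Ddit4 overlapped in CKO Tu. Changes below are differences in log2(FPKM + 1) from a limma fit to all 9 libraries, with standard errors (SE), and understate the change of genes with low FPKM. A gene was called at a Benjamini-Hochberg adjusted p below 0.05 over the 11858 genes that reached 1 FPKM in 3 or more libraries. All 6 genes passed that filter, 5 in all 9 libraries and Stc2 through the 3 CKO Tu libraries alone, so Stc2 had to differ between CKO Tu and the WT groups to be tested.

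**Figure D1:**
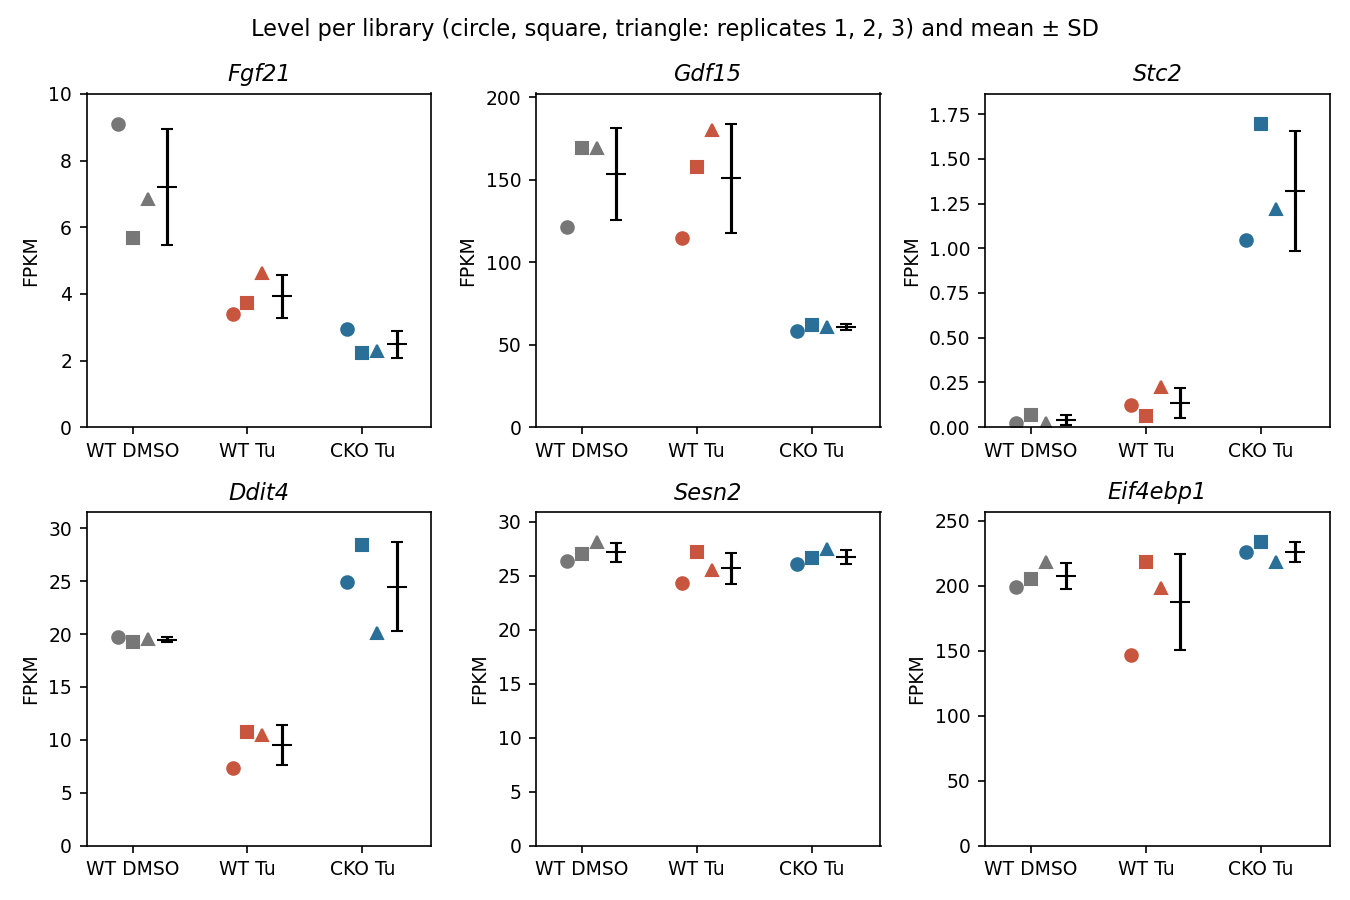
FPKM of each gene (vertical axis, from 0) in the 9 libraries, by group, with the mean and SD of 3 libraries beside the points. Gdf15 and Stc2 in CKO Tu lie apart from both WT groups, Ddit4 is lowest in WT Tu, and Sesn2 stays between 24.4 and 28.1 FPKM in all libraries.

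Fgf21 (ENSMUSG00000030827, chromosome 7, 45613886 to 45615490, minus strand, mm10, 3 exons) is a hepatic hormone of fasting and of protein or amino acid lack. It was at 9.10, 5.68 and 6.86 FPKM in WT DMSO replicates 1, 2 and 3, at 3.40, 3.74 and 4.63 FPKM in WT Tu, and at 2.95, 2.24 and 2.28 FPKM in CKO Tu. Every WT Tu library lay below every WT DMSO library, and every CKO Tu library below every WT Tu library. With tunicamycin the mean went from 7.21 ± 1.74 to 3.92 ± 0.635 FPKM (SD, n = 3), a change of -0.73 ± 0.16 (SE; limma adjusted p = 0.0082). In CKO Tu it was 2.49 ± 0.402 FPKM (SD, n = 3), -0.49 ± 0.16 from WT Tu (limma adjusted p = 0.037) and -1.22 ± 0.16 from WT DMSO (limma adjusted p = 0.00027). The call between CKO Tu and WT Tu was lost without the filter (limma adjusted p = 0.097), with voom on recovered fragments (0.083), with scaling to total fragments (0.06), and without WT Tu replicate 2 or 3 (0.067 and 0.11) or CKO Tu replicate 2 or 3 (0.11 and 0.1). It rests on 167 fragments in WT Tu and 110 in CKO Tu. Fgf21 also held the only CARE match among the printed stretches, and whether that match has a part in its level was not tested.

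Gdf15 (ENSMUSG00000038508, chromosome 8, 70629393 to 70632456, minus strand) encodes a distant member of the TGF-beta family that tissues release under many kinds of stress. It was at 121, 169.5 and 169.6 FPKM in WT DMSO, at 115, 158 and 180.1 FPKM in WT Tu, and at 58.5, 62.1 and 61.0 FPKM in CKO Tu. The WT groups overlapped throughout, and every CKO Tu library lay below every WT library. Tunicamycin left the mean at 151 ± 33.1 FPKM beside 153 ± 27.9 FPKM (SD, n = 3), a change of -0.03 with a 95% interval of -0.43 to 0.36 (limma adjusted p = 0.91). The sign of that small change turned to positive without WT DMSO replicate 2 or 3 (0.05 for both), without WT Tu replicate 1 (0.15) and with the GC trend removed (0.22), none of them called. CKO Tu, at 60.6 ± 1.82 FPKM (SD, n = 3), was 2.49-fold below WT Tu (-1.28 ± 0.17, SE; limma adjusted p = 0.00063) and 2.53-fold below WT DMSO (-1.31 ± 0.17; limma adjusted p = 0.00029). Both calls held in every alternative run, with changes of -1.14 to -1.46 and -1.21 to -1.47. Replicates of CKO Tu were also closer to each other, with a coefficient of variation of 3.0%, beside 21.9% in WT Tu and 18.2% in WT DMSO.

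Stc2 (ENSMUSG00000020303, chromosome 11, 31357307 to 31370074, minus strand) was close to silent in WT cells. WT DMSO replicates 1, 2 and 3 held 2, 6 and 2 of its fragments (0.0242, 0.0703 and 0.0245 FPKM). WT Tu held 9, 5 and 17 (0.122, 0.0614 and 0.223 FPKM), and CKO Tu held 85, 136 and 96 (1.05, 1.70 and 1.22 FPKM). WT Tu and WT DMSO overlapped, at a change of 0.12 with a 95% interval of -0.20 to 0.45 (limma adjusted p = 0.53). In fragments, WT Tu held 3.34 times the WT DMSO level, with a 95% exact binomial interval of 1.60 to 7.64 that covers counting error only. The FPKM of CKO Tu, 1.32 ± 0.336 (SD, n = 3), was 9.75 times that of WT Tu, 0.135 ± 0.0814 FPKM (SD, n = 3). On the log2(FPKM + 1) scale the difference was 1.02 ± 0.14 (SE; limma adjusted p = 0.00068), and from WT DMSO 1.15 ± 0.14 (limma adjusted p = 0.00018). With a pseudocount of 0.1 these differences were 2.63 and 3.34, and with voom 3.38 and 4.97, so the size depends on how low values are treated. Even in CKO Tu the level stayed just above the filter, the lowest library lying at 1.05 FPKM. Its paralog Stc1 was below the filter, with 8, 9 and 20 fragments in WT DMSO, WT Tu and CKO Tu.

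Ddit4 (ENSMUSG00000020108, chromosome 10, 59949669 to 59951834, minus strand, 3 exons) answers to glucocorticoids, low oxygen, DNA damage and energy lack as well as to ATF4. It was at 19.7, 19.2 and 19.5 FPKM in WT DMSO, at 7.33, 10.8 and 10.5 FPKM in WT Tu, and at 24.9, 28.5 and 20.1 FPKM in CKO Tu. No groups overlapped: WT Tu was lowest and CKO Tu highest, with CKO Tu replicate 3 just above WT DMSO. With tunicamycin the mean fell 2.05-fold in WT cells, from 19.5 ± 0.256 to 9.53 ± 1.91 FPKM (SD, n = 3; -0.98 ± 0.15, SE; limma adjusted p = 0.0013). WT Tu replicate 1 was the lowest library, and the change was -0.82 when it was left out (limma adjusted p = 0.0015). CKO Tu, at 24.5 ± 4.20 FPKM (SD, n = 3), was 2.57-fold above WT Tu (1.28 ± 0.15, SE; limma adjusted p = 0.0003). Both calls held in every alternative run. Against WT DMSO the difference of 0.30 ± 0.15 was not called (95% interval -0.04 to 0.64; limma adjusted p = 0.13), and it was called with the GC trend removed (0.40; limma adjusted p = 0.021) and when CKO Tu replicate 3 was left out (0.43; limma adjusted p = 0.044).

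Sesn2 (ENSMUSG00000028893, chromosome 4, 132492032 to 132510501, minus strand, 10 exons) was the steadiest of the 6. It was at 26.4, 27.1 and 28.1 FPKM in WT DMSO, at 24.4, 27.2 and 25.6 FPKM in WT Tu, and at 26.1, 26.7 and 27.5 FPKM in CKO Tu. All 3 groups overlapped. The difference was -0.08 between WT Tu and WT DMSO (95% interval -0.20 to 0.05; limma adjusted p = 0.31), 0.06 between CKO Tu and WT Tu (-0.07 to 0.18; limma adjusted p = 0.47) and -0.02 between CKO Tu and WT DMSO (-0.15 to 0.10; limma adjusted p = 0.76). Under scaling to total fragments, which shifts the median of all genes in WT Tu against WT DMSO by -0.107, the first of these became -0.21 and was called (limma adjusted p = 0.028), and with the GC trend removed it was 0.12 (limma adjusted p = 0.11). A predicted gene, Gm12981, lies within the Sesn2 locus without sharing exons and had 44 fragments in all libraries together.

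Eif4ebp1 (ENSMUSG00000031490, chromosome 8, 27260329 to 27276674, plus strand) was the most abundant of the 6. It was at 199, 205 and 219 FPKM in WT DMSO, at 147, 218 and 198 FPKM in WT Tu, and at 226, 233 and 219 FPKM in CKO Tu. WT Tu replicate 1 was the lowest library and the other WT Tu libraries lay within the range of WT DMSO or close to it. The change with tunicamycin was -0.16 ± 0.13 (SE; 95% interval -0.45 to 0.12; limma adjusted p = 0.35), and 0.00251 when WT Tu replicate 1 was left out. CKO Tu lay above WT Tu in all libraries, though its lowest was only just above WT Tu replicate 2, by 0.29 ± 0.13 (95% interval -0.00 to 0.57; limma adjusted p = 0.11), which was called only without WT Tu replicate 2 (0.40; limma adjusted p = 0.031) and was 0.12 without WT Tu replicate 1. Against WT DMSO it differed by 0.12 ± 0.13 (limma adjusted p = 0.46).

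Counted together, 0 of the 6 genes rose with tunicamycin in WT cells, 2 fell (Fgf21 and Ddit4) and 4 were not called, where 33.6% of all genes tested were called, 17.7% higher and 15.9% lower. Total-fragment scaling put 31.5% of the called genes higher and upper-quartile scaling 41.8%, beside 52.7% as deposited, and under neither was any of the 6 genes called higher. Between CKO Tu and WT Tu, 2 were higher (Stc2 and Ddit4), 2 were lower (Gdf15 and Fgf21) and 2 were not called, with 38.3% of all genes called, 18.7% higher and 19.6% lower. Between CKO Tu and WT DMSO, 1 was higher (Stc2), 2 were lower (Fgf21 and Gdf15) and 3 were not called, with 49.5% of all genes called, 25.3% higher and 24.2% lower. Since Stc2 had to differ from the WT groups to pass the filter, its calls against them are a description, and nothing is read from these 2 counts of higher genes against the share of all genes. Libraries of the groups were fully separate for 2, 5 and 4 of the 6 genes, where 46.7%, 51.2% and 63% of all genes did not overlap. The 5 and the 4 include Stc2, whose separation from the WT groups was set by the filter, so nothing is read from them against those shares. These comparisons share libraries, so their values stand side by side and are not independent.

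**Figure D2:**
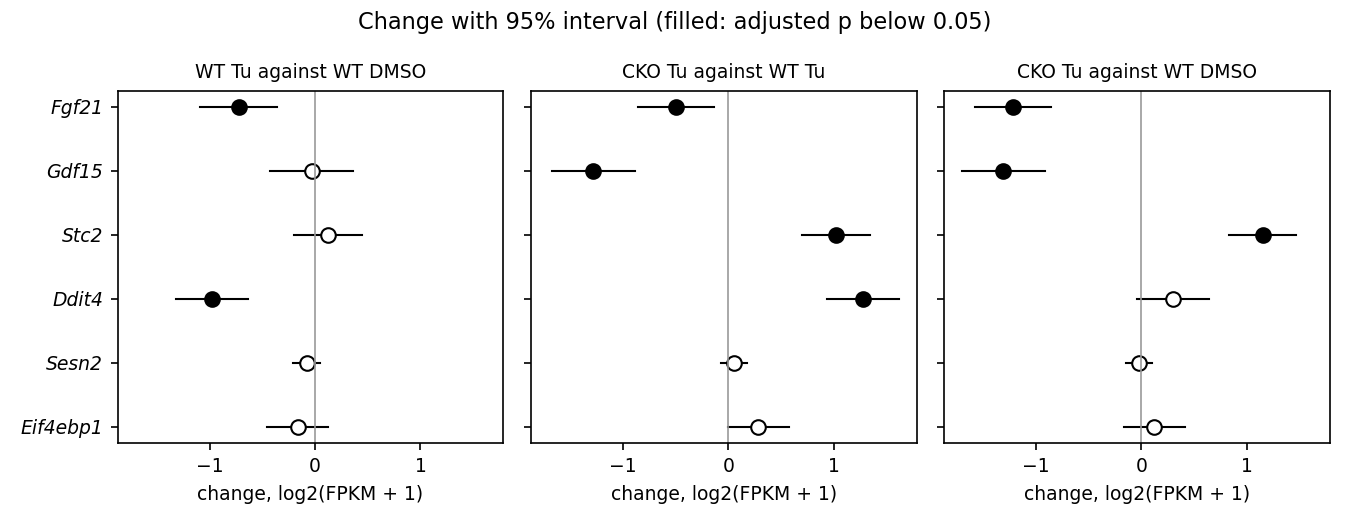
Difference in log2(FPKM + 1) of each gene with its 95% interval in the 3 comparisons, filled where limma's adjusted p is below 0.05. Fgf21 lies below 0 in all 3 panels, Ddit4 lies at -0.98 in the first and at 1.28 in the second, and Sesn2 lies near 0 throughout.

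The ER stress response itself was present in the tunicamycin libraries. Every list count below is to be read against the share of all genes called, 33.6% with tunicamycin in WT cells and 38.3% in CKO Tu against WT Tu. All 10 ER chaperone genes listed rose in WT Tu, with a median change of 3.14 beside -0.0015 over all genes, and all 10 were also higher in CKO Tu than in WT DMSO (median 3.07). Between CKO Tu and WT Tu 3 were lower, Dnajb9 (-0.47 ± 0.10; limma adjusted p = 0.0065), Calr and Pdia4. Those of Calr (-0.26; limma adjusted p = 0.022) and Pdia4 (-0.24; limma adjusted p = 0.014) were lost in some alternatives, with CKO Tu replicate 1 or 2 left out among them (0.051 to 0.072). Sdf2l1, Hsp90b1 and Pdia4 rose by 5.45 ± 0.09, 4.54 ± 0.13 and 4.21 ± 0.06 (SE; limma adjusted p = 3.4e-09, 1.2e-07 and 3.4e-09). Of 15 regulators of the integrated stress response, 6 rose, 3 fell and 6 were not called. Ddit3, which encodes CHOP, went from 46.4 ± 9.50 to 487 ± 26.6 FPKM (SD, n = 3), and Atf3 and Eif2ak3, the gene of PERK, rose by 1.75 ± 0.19 and 1.28 ± 0.07 (SE; limma adjusted p = 2e-04 and 2.5e-06). Atf4 mRNA, at 224 ± 18.5 and 273 ± 49.1 FPKM (SD, n = 3), was not called (limma adjusted p = 0.13), and was called without WT Tu replicate 1 (0.43; limma adjusted p = 0.0018). Atf4 mRNA in CKO Tu was at 344 ± 2.99 FPKM (SD, n = 3). Its difference from WT Tu, 0.35 ± 0.12 (SE), was not called (limma adjusted p = 0.053). From WT DMSO it differed by 0.62 (limma adjusted p = 0.003). ATF4 is controlled largely in translation, which these libraries do not measure.

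Of 23 other ATF4 targets tested, 9 rose, 1 fell and 13 were not called with tunicamycin in WT cells, so 43.5% were called, beside 33.6% of all genes. Their median change was 0.11, beside -0.0015 over all genes. Wars, a tryptophan tRNA synthetase, and Aldh1l2, a mitochondrial folate enzyme, rose by 1.47 ± 0.06 and 1.01 ± 0.09 (SE; limma adjusted p = 9.5e-07 and 5.3e-05), while Pck2 fell by 0.66 on the log2 scale (limma adjusted p = 0.00028). In CKO Tu, 14 of the 23 were lower than in WT Tu, 3 were higher and 6 were not called, where 19.6% of all genes were lower and 18.7% higher. The median difference was -0.32, beside -0.0021 over all genes. Phgdh and Psat1, enzymes of serine synthesis, and the mitochondrial protease Lonp1 differed by -0.73 ± 0.09, -0.68 ± 0.06 and -0.58 ± 0.05 (SE; limma adjusted p = 0.00035, 8.6e-05 and 8.1e-05). The counts were also 14 and 3 when WT Tu replicate 1 was left out. Among the stress regulators 5 of 15 were lower and 3 higher, with Nupr1 at -0.97 ± 0.21 and Ppp1r15a, the phosphatase subunit that reverses eIF2α phosphorylation, at -0.56 ± 0.12 (limma adjusted p = 0.0069 and 0.0064). Ddit3, at 332 ± 42.1 FPKM in CKO Tu (SD, n = 3), was lower than in WT Tu (limma adjusted p = 0.017), a call lost without the filter (0.051) and without CKO Tu replicate 1 (0.065). The 3 regulators called higher were Eif2ak3 (0.34), Ppp1r15b (0.30) and Cebpg (0.23), with limma adjusted p of 0.0042, 0.00084 and 0.014. In the same comparison Gdf15 and Fgf21 were lower, and Stc2 and Ddit4 were higher.

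Relatives of the 6 genes were mostly at low levels, and 5 of 10 were tested: with tunicamycin 0 rose, 1 fell and 4 were not called, and 3 were higher, 0 lower and 2 not called in CKO Tu against WT Tu. Ddit4l, the paralog of Ddit4, went from 8.57 ± 1.78 to 4.84 ± 0.0424 FPKM with tunicamycin (SD, n = 3; -0.70 ± 0.11, SE; limma adjusted p = 0.0017) and stood at 6.64 ± 0.227 FPKM in CKO Tu. Its difference between CKO Tu and WT Tu (0.39 ± 0.11; limma adjusted p = 0.024) was lost without the filter (0.061) and when any 1 of WT Tu replicates 2 and 3 and CKO Tu replicates 1, 2 and 3 was left out, at 0.053 to 0.076. Eif4ebp3 was higher in CKO Tu, at 2.00 ± 0.455 against 0.907 ± 0.198 FPKM (SD, n = 3; limma adjusted p = 0.0046), and Eif4ebp2, at 22.8 ± 1.09 and 25.6 ± 1.28 FPKM, was not called (limma adjusted p = 0.18). Sesn1 was at 1.37 ± 0.182 and 2.25 ± 0.202 FPKM in WT Tu and CKO Tu (SD, n = 3; limma adjusted p = 0.043), a call lost in the fit with the replicate number as a block (0.061) and without WT Tu replicate 2 (0.082) or 3 (0.11) or CKO Tu replicate 1 (0.084), 2 (0.13) or 3 (0.082). Sesn3 was below the filter, and Fgf15, an intestinal hormone of the same FGF subfamily as Fgf21, had 0 fragments in all libraries.

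Of the FGF receptor genes, Fgfr1, Fgfr3 and Fgfr4 had means above 1 FPKM in all groups, and Fgfr2 was below the filter. The co-receptor gene Klb had a mean above 1 FPKM only in CKO Tu. Of 6 tested receptors, partners and convertases, 1 rose, 3 fell and 2 were not called with tunicamycin, and 4 were higher, 0 lower and 2 not called in CKO Tu against WT Tu. Fgfr1 was at 3.43 ± 0.138, 2.82 ± 0.0567 and 4.76 ± 0.116 FPKM in WT DMSO, WT Tu and CKO Tu (SD, n = 3), and higher in CKO Tu than in WT Tu (0.59 ± 0.06, SE; limma adjusted p = 0.00013). Klb, the gene of beta-Klotho, was at 0.433 ± 0.192, 0.948 ± 0.138 and 1.80 ± 0.147 FPKM (SD, n = 3) and was also higher in CKO Tu than in WT Tu (limma adjusted p = 0.0098). It reached 1 FPKM in 1 WT Tu library and 0 WT DMSO libraries and so passed the filter only with the CKO Tu libraries, where it is high. Its call is among the 4 higher and adds no support to that count. Its rise with tunicamycin (limma adjusted p = 0.022) was lost without the filter (0.058), without WT DMSO replicate 2 (0.063) or 3 (0.073) and without WT Tu replicate 1 (0.06). Fgfr3 was higher in CKO Tu (0.38; limma adjusted p = 0.0072) and Fgfr4 was not called (0.50; limma adjusted p = 0.11). Pcsk6, another convertase, fell with tunicamycin (-0.29; limma adjusted p = 0.012), a call lost with the GC trend removed (0.15). Gfral, the GDF15 receptor of the brainstem, had 0 fragments, and Pappa, the protease that stanniocalcin 2 inhibits, had 6, 2 and 8 fragments in WT DMSO, WT Tu and CKO Tu. Furin, a convertase that cleaves many prohormones, went from 17.4 ± 1.27 to 10.9 ± 1.46 FPKM with tunicamycin (SD, n = 3; -0.64 ± 0.11, SE; limma adjusted p = 0.0028) and was at 33.4 ± 4.20 FPKM in CKO Tu, 1.53 ± 0.11 above WT Tu (limma adjusted p = 2.4e-05). Furin was thus low in WT Tu and high in CKO Tu, as Ddit4 was.

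Genes of mTORC1 and its regulators were called in both directions, as genes at large were. Of 38 tested, 12 rose, 6 fell and 20 were not called with tunicamycin in WT cells, and 6 were higher, 12 lower and 20 not called in CKO Tu against WT Tu. In each comparison 47.4% of the list was called, beside 33.6% and 38.3% of all genes. The medians were 0.13 and -0.08. Castor2, among the 6 that fell, was at 1.26, 0.625 and 0.650 FPKM in WT DMSO, WT Tu and CKO Tu. It passed the filter only through WT DMSO, where it is high. Its call adds no support, and the count of 6, the 47.4% with tunicamycin and the median of 0.13 include it. The largest changes with tunicamycin were rises of Fnip1, Flcn, the gene of folliculin, and Rragc, the gene of a Rag GTPase, by 1.32 ± 0.13, 0.94 ± 0.12 and 0.87 ± 0.12 (SE; limma adjusted p = 0.00013, 0.00042 and 0.00066). Rragd, which encodes another Rag GTPase, went from 3.05 ± 0.288 to 4.99 ± 0.332 FPKM and stood at 2.53 ± 0.265 FPKM in CKO Tu (SD, n = 3). Fnip2 and Rragd differed by -0.80 ± 0.08 and -0.76 ± 0.09 between CKO Tu and WT Tu (SE; limma adjusted p = 0.00014 and 0.00025), and Pdcd4, an inhibitor of translation initiation, by 0.76 ± 0.13 (limma adjusted p = 0.0024). Eif4e, the partner of 4E-BP1, rose by 0.43 with tunicamycin and was lower by 0.36 in CKO Tu than in WT Tu (limma adjusted p = 0.0047 and 0.0089).

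**Figure D3:**
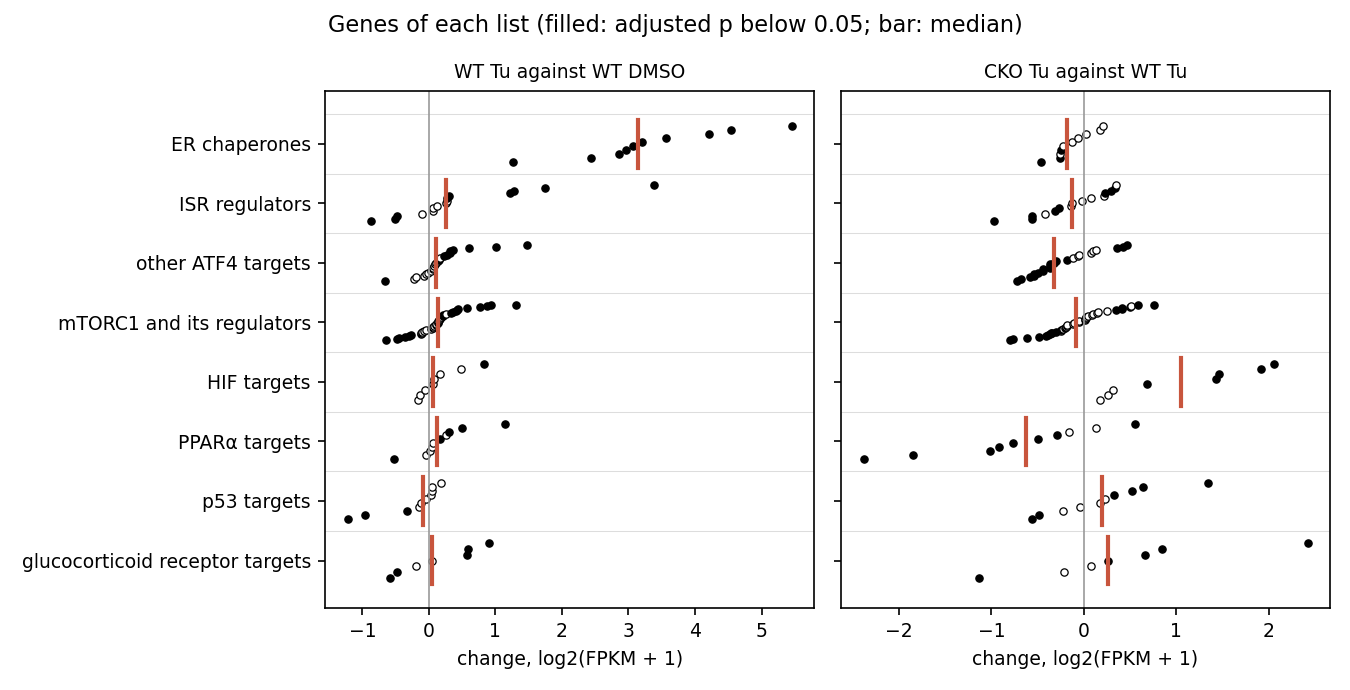
Differences in log2(FPKM + 1) of the tested genes of 8 lists (points, filled where limma's adjusted p is below 0.05) with the list median (bar), for WT Tu against WT DMSO and CKO Tu against WT Tu. ER chaperones lie far to the right in the first panel, and in the second HIF targets lie to the right of 0 and PPARα targets mostly to the left.

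The remaining lists hold targets of other factors known to act on these genes. HIF targets are relevant to Ddit4 and Stc2, both of which low oxygen is known to induce. With tunicamycin 1 of 8 HIF targets rose, Ndrg1 (0.83 ± 0.15, SE; limma adjusted p = 0.0029), and 7 were not called. In CKO Tu 5 of the 8 were higher than in WT Tu, 0 lower and 3 not called, with a median difference of 1.06 beside -0.0021 over all genes, and 18.7% of all genes were called higher. Bnip3, a receptor of mitophagy, was at 23.6 ± 4.09, 24.4 ± 3.04 and 105 ± 14.01 FPKM in WT DMSO, WT Tu and CKO Tu (SD, n = 3), and differed by 2.06 ± 0.15 between CKO Tu and WT Tu (SE; limma adjusted p = 2e-05). Pdk1, which restrains pyruvate oxidation, and Egln3, an oxygen-sensing prolyl hydroxylase, differed by 1.92 ± 0.12 and 1.47 ± 0.16 (limma adjusted p = 9.6e-06 and 2e-04). Hif1a mRNA itself was lower by 0.50 (limma adjusted p = 0.00068). The count was also 5 when WT Tu replicate 1 was left out. Ankrd37 is among the 5, and it passed the filter only through CKO Tu, where it is high, as Stc2 did. Its call adds no support, and both the count of 5 and the median of 1.06 include it.

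PPARα targets are relevant to Fgf21, which PPARα induces in fasted liver. Of 10 tested, 4 rose, 1 fell and 5 were not called with tunicamycin, led by Pdk4 (1.14 ± 0.10, SE; limma adjusted p = 7.2e-05). Cpt1a, the entry enzyme of mitochondrial fatty acid oxidation, rose by 0.49 and Angptl4 changed by -0.52 (limma adjusted p = 0.0016 and 0.001). In CKO Tu 7 of the 10 were lower than in WT Tu, 1 higher and 2 not called, with a median difference of -0.63, and 19.6% of all genes were called lower. Cyp4a14, a fatty acid hydroxylase, was at 53.8 ± 5.32, 64.1 ± 3.14 and 11.6 ± 1.93 FPKM in WT DMSO, WT Tu and CKO Tu (SD, n = 3), a difference of -2.38 ± 0.12 from WT Tu (SE; limma adjusted p = 2.3e-06). Cyp4a10 and the lipid droplet gene Plin2 differed by -1.84 ± 0.07 and -1.01 ± 0.05 (limma adjusted p = 6.3e-07 and 3.4e-06). Ppara mRNA was higher by 0.53 (limma adjusted p = 0.0012). The same libraries differ in sex-linked transcripts, and the part of sex cannot be told apart from genotype.

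Targets of p53, which can induce Gdf15, Sesn2 and Ddit4, and of the glucocorticoid receptor, which can induce Ddit4, were also counted. Of 10 p53 targets, 0 rose, 3 fell and 7 were not called with tunicamycin, a called share near the 33.6% of all genes. In CKO Tu against WT Tu 4 were higher, 2 lower and 4 not called, beside 38.3% of all genes called. Phlda3, Plk2 and Zmat3 changed by -1.22 ± 0.14, -0.96 ± 0.06 and -0.34 ± 0.08 with tunicamycin (SE; limma adjusted p = 0.00024, 8.2e-06 and 0.0093). Trp53inp1 differed by 1.34 ± 0.18 and Plk2 by -0.56 ± 0.06 between CKO Tu and WT Tu (SE; limma adjusted p = 0.00061 and 2e-04), and Cdkn1a, the gene of p21, by 0.33 (limma adjusted p = 0.0074). Bbc3 was higher by 0.64 (limma adjusted p = 0.028), a call lost without the filter (0.076) and without CKO Tu replicate 1 (0.06), 2 (0.082) or 3 (0.066). Of 7 glucocorticoid targets, 3 rose, 2 fell and 2 were not called with tunicamycin, and 4 were higher, 1 lower and 2 not called in CKO Tu against WT Tu. Per1 and Dusp1 rose by 0.90 ± 0.20 and 0.59 ± 0.12 and Tsc22d3 changed by -0.58 ± 0.09 with tunicamycin (SE; limma adjusted p = 0.0079, 0.006 and 0.0011). Tat, the hepatic tyrosine aminotransferase, and Klf9 differed by 2.42 ± 0.15 and 0.85 ± 0.07 between CKO Tu and WT Tu, and Dusp1 by -1.13 ± 0.12 (SE; limma adjusted p = 7.8e-06, 6.9e-05 and 0.00019). Of 11 transcription factors known to act on these genes, 3 rose, 3 fell and 5 were not called with tunicamycin, and 4 were higher, 3 lower and 4 not called in CKO Tu against WT Tu. Atf6 and Xbp1, of the other branches of the ER stress response, rose by 1.26 ± 0.12 and 0.58 ± 0.05 (SE; limma adjusted p = 7.6e-05 and 3.7e-05). Mlxipl, the gene of the carbohydrate sensor ChREBP, was at 17.7 ± 3.39, 10.2 ± 1.41 and 24.5 ± 2.09 FPKM in WT DMSO, WT Tu and CKO Tu (SD, n = 3). It changed by -0.74 ± 0.14 with tunicamycin and by 1.20 ± 0.14 between CKO Tu and WT Tu (SE; limma adjusted p = 0.0036 and 0.00027).

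The genes closest in pattern to each of the 6 were sought among 6420 tested genes with a mean of at least 5 FPKM. Likeness was the root mean square difference between log2(FPKM + 1) values over the 9 libraries, after subtracting each gene's mean, so that 0 would be the same pattern. Closest to Ddit4 were Gadd45b (0.0983), Errfi1 (0.121) and Cited2 (0.161), all low in WT Tu and highest in CKO Tu. Gadd45b, a stress-induced regulator of kinase signalling, was at 22.6 ± 1.15, 11.3 ± 1.36 and 29.7 ± 4.0 FPKM (SD, n = 3) in WT DMSO, WT Tu and CKO Tu. Errfi1, an inhibitor of the EGF receptor, was at 49.1 ± 1.36, 28.6 ± 2.94 and 62.1 ± 8.58 FPKM. Closest to Gdf15 were Vps37b (0.117), Epha2 (0.130) and Cyp2c50 (0.168), and Epha2, a receptor kinase, was at 73.7 ± 6.38, 64.9 ± 10.3 and 30.5 ± 0.125 FPKM. Closest to Fgf21 were Elovl6 (0.134), Lmnb2 (0.134) and Otud1 (0.163), and Elovl6, a fatty acid elongase, was at 17.5 ± 2.78, 9.02 ± 0.491 and 6.41 ± 0.951 FPKM. Closest to Stc2 were Tff3 (0.118), Fbxo30 (0.128) and Scrn3 (0.133), of which Tff3 encodes a secreted trefoil peptide. Tff3 was at 4.24 ± 0.596, 4.61 ± 0.872 and 10.6 ± 2.04 FPKM in WT DMSO, WT Tu and CKO Tu (SD, n = 3). Stc2 had means of 0.0397, 0.135 and 1.32 FPKM, so likeness on this scale is not likeness in fold change. Sesn2, whose pattern is nearly flat, had closer neighbours, Lrrc42 (0.0264), Nop2 (0.0313) and Sft2d1 (0.0314), and Eif4ebp1 had Cycs (0.0508), Sod1 (0.0513) and Sap18 (0.0525).

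**Figure D4:**
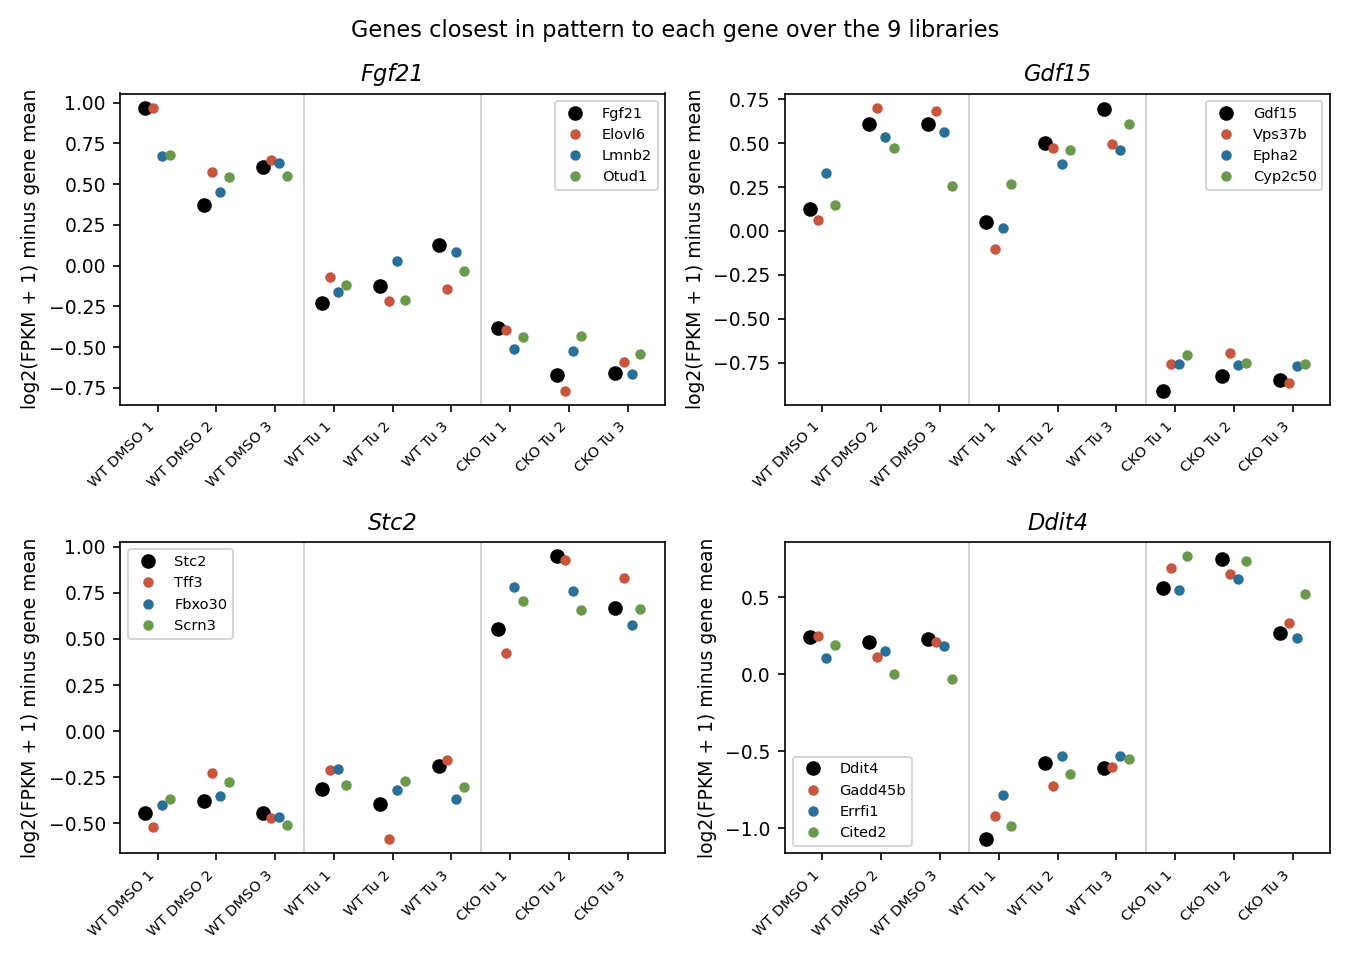
Values of log2(FPKM + 1) minus the gene's mean in each of the 9 libraries for Fgf21, Gdf15, Stc2 and Ddit4 (black) and the 3 genes closest to each (colours). The 3 genes of each panel were picked for likeness, so their closeness to the named gene was set by that choice. Ddit4 and its neighbours lie lowest in the 3 WT Tu libraries.

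Among themselves the 6 genes did not share one pattern. By the same measure Sesn2 and Eif4ebp1 were closest to each other (0.148), and Gdf15 and Stc2 were farthest apart (1.14), followed by Gdf15 and Ddit4 (1.07). Within the hormones, Fgf21 and Gdf15 differed by 0.459. Both were lowest in CKO Tu, while in WT Tu Fgf21 was below WT DMSO and Gdf15 overlapped with it. Within the growth-restraining genes, Ddit4 differed from Sesn2 by 0.543 and from Eif4ebp1 by 0.444.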

How the data were processed

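RNA of 9 hepatocyte libraries was sequenced. Per the submitters' processing notes, the authors used HISAT2 2.2.1, featureCounts 1.5.0-p3 and mm10. The annotation release and strand setting are not given in the sources used here. The authors deposited FPKM for 54532 genes, with gene length, another deposited value. Dividing out length showed that 100% of values were whole fragments (tolerance 0.001), and each library's FPKM had been scaled to between 0.948 and 1.07 times its recovered total.

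Genes reaching 1 FPKM in 3 or more libraries (11858) were tested with limma 3.58.1 in R 4.3.3 on log2(FPKM + 1), with a mean per group, all 9 libraries, an intensity trend, two-sided tests and Benjamini-Hochberg adjustment. With 3 against 3 libraries an exact permutation test cannot go below 0.1, so none is used for calls. A check on simulated data, made for the WT Tu and WT DMSO comparison on 11548 genes, recovered 83.0% of genes set to change by 1 and 95.5% of those set to change by 2 (log2), and called 0.0616% of unchanged genes. The simulation gave all genes a common spread beyond counting error and held no outlying library, so rates in the real data may be worse.

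The 6 genes and all lists were chosen with earlier results of these data known. From each list the called genes with the largest change were named, at most 3 in each of the first 2 comparisons, with relatives, receptors and partners of the 6 genes. List genes were not named for CKO Tu against WT DMSO, apart from Atf4. Atf4, Ankrd37, Castor2 and Cdkn1a were added after their values were seen, as were Eif2ak3, Ppp1r15b and Cebpg for CKO Tu against WT Tu. The 3 genes closest in pattern were sought among tested genes with a mean of at least 5 FPKM and no predicted-gene symbol. Alternatives were a pseudocount of 0.1, no filter, a filter at 5 FPKM, upper-quartile, quantile and total-fragment scaling, voom on recovered fragments, no intensity trend, a block for replicate number, subtraction of the lowess dependence on GC (span 0.3), fits to only the groups compared, and each library left out. List counts without WT Tu replicate 1 were added after seeing the data.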

Additional observations from a re-analysis of the deposited data

How the results depend on the processing

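Of 296 values of the 6 genes under the alternatives, 276 kept their direction and side of the threshold, and the numbers of genes called stayed within 1.5 times those reported in all alternatives run. The falls of Fgf21 and Ddit4 in WT Tu, the lower Gdf15 and higher Ddit4 in CKO Tu against WT Tu, and the lower Fgf21 and Gdf15 in CKO Tu against WT DMSO kept their calls in every one. For the rest the cause was not tested. Removing the GC trend put Gdf15 at 0.22 and Sesn2 at 0.12 in WT Tu against WT DMSO, Sesn2 at -0.0332 in CKO Tu against WT Tu, and Sesn2 at 0.0829 and Ddit4 at 0.40 (called) in CKO Tu against WT DMSO. Scaling to total fragments put Sesn2 at -0.21 (called) in WT Tu against WT DMSO. Fgf21 in CKO Tu against WT Tu was not called at -0.49 without the filter, -0.45 with total-fragment scaling and -0.65 with voom. With 1 library left out at a time, its change ran from -0.59 to -0.39. In WT Tu against WT DMSO, Gdf15 ran from -0.19 to 0.15 and Eif4ebp1 from -0.28 to 0.00251. Gdf15 was at 0.05 without WT DMSO replicate 2 and without WT DMSO replicate 3. Eif4ebp1 in CKO Tu against WT Tu ran from 0.12 to 0.40, and in CKO Tu against WT DMSO Ddit4 ran from 0.19 to 0.43 and Sesn2 from -0.0438 to 0.000612. Stc2 fell below the filter, and has no value, without any 1 CKO Tu library, with a filter at 5 FPKM and, for WT Tu against WT DMSO, with only those groups in the fit.

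With the replicate number as a block, 3696, 4248 and 5683 genes were called in WT Tu against WT DMSO, CKO Tu against WT Tu and CKO Tu against WT DMSO, beside 3981, 4538 and 5869, and no call of the 6 genes changed. Deviations of same-numbered libraries correlated at -0.0967 to 0.0208 over 9 pairs, and 3 of 18 correlated best with their own number. With 3 libraries a group, this cannot tell whether same-numbered samples share a preparation.

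Few fragments limit Stc2 in the WT groups and Fgf21 in all groups.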
